A study of Mus musculus with 2 samples.

Results

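Gamma-delta T cells were described in CD45+ leukocytes sorted from mouse tumours and profiled by droplet single-cell RNA sequencing, with 1 library from Ythdf2 KO tumours and 1 from WT tumours of C57BL/6 mice. Ythdf2 encodes a reader protein that binds messenger RNA carrying the N6-methyladenosine (m6A) mark and promotes its decay. According to the labels the tumours carried the knockout, but the series' own design statement refers to cKO mice, and the cells that lacked Ythdf2 are therefore uncertain. The tumour line, any Cre driver, and the number of animals behind each library are not given in the sources used here. Tumours were digested with collagenase IV and DNase I before red cell lysis and sorting. Gamma-delta T cells were taken as barcodes with at least 2 unique molecular identifiers (UMIs, each standing for 1 captured transcript) of Trdc, which encodes the constant part of the delta chain. They also had at least 2 UMIs of Cd3d, Cd3e and Cd3g together, no UMI of Cd8a, Cd8b1, Cd4, Foxp3, Ncr1, Klrb1c or Klre1, and under 10 UMIs of 6 macrophage genes per 10000. This rule gave 248 cells of the 36259 barcodes kept, 80 in the Ythdf2 KO library and 168 in the WT library.

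A gamma-delta T cell carries an antigen receptor built from a gamma and a delta chain in place of the alpha and beta chains of conventional T cells. In the mouse, waves of these cells leave the thymus with fixed variable segments, settle in skin, lung, gut and reproductive tract, and are committed early to making either IL-17 or interferon-gamma. IL-17-producing cells are known for Rora, Maf, Sox13, Blk and Il23r and for the scavenger receptor gene Cd163l1, and in mouse tumours they are a known source of IL-17A, which draws in neutrophils, while interferon-gamma-producing cells carry Tbx21, Eomes and cytotoxic genes.

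The mouse gamma chain can use 1 of several constant genes on chromosome 13, and 3 of them, Tcrg-C1, Tcrg-C2 and Tcrg-C4, gave UMIs here. Each constant gene is joined to the variable segments of its own cluster: Tcrg-C1 to Tcrg-V4, Tcrg-V5, Tcrg-V6 and Tcrg-V7, Tcrg-C4 to Tcrg-V1, and Tcrg-C2 to Trgv2. The start of exon 1 of each is printed because the grouping of cells below rests on telling these genes apart. Capitals mark bases that differ from Tcrg-C1.
Tcrg-C1: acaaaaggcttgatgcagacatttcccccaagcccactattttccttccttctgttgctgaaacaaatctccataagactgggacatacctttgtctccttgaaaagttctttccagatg
Tcrg-C2: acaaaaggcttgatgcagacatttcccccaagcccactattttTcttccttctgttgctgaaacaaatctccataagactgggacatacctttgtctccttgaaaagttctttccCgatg
Tcrg-C4: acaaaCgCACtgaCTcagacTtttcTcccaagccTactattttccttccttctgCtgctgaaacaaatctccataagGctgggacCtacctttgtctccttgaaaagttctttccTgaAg
These stretches lie at chr13:19214103-19214222 on the plus strand for Tcrg-C1, at chr13:19307432-19307551 on the minus strand for Tcrg-C2 and at chr13:19344558-19344677 on the plus strand for Tcrg-C4 (GRCm38, GENCODE annotation). Over the whole exon of 330 bases, Tcrg-C2 differed from Tcrg-C1 at 9 bases and Tcrg-C4 at 59. Tcrg-C2 is a near-identical copy of Tcrg-C1, so the counting could split reads between them and their separate values are uncertain. Tcrg-C4 is set apart by many more bases.

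The libraries held 134066610 UMIs in 16312 barcodes (Ythdf2 KO) and 168912853 UMIs in 20886 barcodes (WT). After filters of at least 200 genes and at most 10% mitochondrial UMIs, 15844 and 20415 barcodes were kept, with medians of 5753 and 5674 UMIs. The 2 libraries shared 101 barcode sequences, and 1 WT gamma-delta T cell had such a sequence. Gamma-delta T cells had a median of 3852 UMIs (range 1420 to 36333) in the Ythdf2 KO library and 3358.5 UMIs (range 1349 to 17196) in the WT library. Their UMIs summed to 380623 and 678473. With 1 library per genotype, no difference between genotypes could be tested. Intervals given for single libraries are exact 95% intervals (Clopper-Pearson for shares, Poisson for UMI sums, and conditional binomial for ratios) and cover counting error only.

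Of the kept barcodes, 810 (Ythdf2 KO) and 1552 (WT) reached 2 UMIs of Trdc, and 439 and 776 of them also reached 2 Cd3 UMIs. The gate on the NK receptor genes then left 143 and 342 barcodes, and the macrophage limit left 82 and 175. The number of Trdc UMIs chose these cells, and its per-cell median of 6 in Ythdf2 KO cells and 5 in WT cells is therefore a description. At the edge of the rule, 11 and 21 cells had exactly 2 Trdc UMIs and were inside, while 12 and 22 barcodes that met every other gate had exactly 1 and were outside.

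The label was checked on genes that the rule did not use. A UMI of at least 1 gamma constant gene was found in all but 14 of 80 Ythdf2 KO cells and all but 27 of 168 WT cells. Trac, the alpha chain constant gene, had a UMI in 16 Ythdf2 KO cells and 27 WT cells, of which 1 and 3 had no gamma constant UMI. Trbc1 and Trbc2, the beta chain constant genes, were present at 583 and 701 CPM (the UMIs of a gene summed over a group's cells and scaled to a group total of 1000000) in Ythdf2 KO cells and 486 and 703 CPM in WT cells. Trbc2 had a UMI in 88.8% of Ythdf2 KO cells and 81.5% of WT cells. That was more than for any single gamma constant gene, of which Tcrg-C1 was the most frequent at 62.5% and 67.3%. Mast cell and erythroid markers were at 0 in both libraries, as were 6 of 9 tumour or stromal markers, Col1a1, Col1a2, Col3a1, Krt8, Krt18 and Sparc. Of the other 3, Pecam1, which leukocytes also express, had 18 UMIs in Ythdf2 KO and 31 in WT, Epcam had 1 and 4, and Rhox5 had 0 and 1. The 9 markers summed to 49.9 and 53.1 CPM, in 15 and 29 cells. Markers of other lineages were found more widely. Dendritic cell markers were in 47 Ythdf2 KO and 95 WT cells, and macrophage and monocyte markers in 41 and 103. Neutrophil markers were in 26 and 58 cells, and B cell markers in 17 and 34. NK markers, among them Gzma and Prf1, were in 30 and 82 cells, at 349 and 414 CPM.

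Gamma-delta T cells, as gated here, were a smaller share of the Ythdf2 KO library than of the WT library. They made up 0.505% of kept barcodes (interval 0.401 to 0.628, 80 of 15844) in Ythdf2 KO and 0.823% (0.704 to 0.957, 168 of 20415) in WT, a ratio of 0.614 (0.464 to 0.805). Of barcodes with at least 2 Cd3 UMIs under the macrophage limit, called T barcodes here, they were 8.41% (6.73 to 10.4) in Ythdf2 KO and 13.5% (11.6 to 15.5) in WT. For both denominators the intervals of the libraries did not overlap. T barcodes with NK receptor genes were 18.7% (16.3 to 21.3) in Ythdf2 KO and 13.7% (11.9 to 15.7) in WT, and CD8 T cells were 10.6% and 10.3%. Whether such a gap exceeds the variation between tumours was not tested, and a loss of gamma-delta cells cannot be told apart from a gain of other cells in a share.

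**Figure D1:**
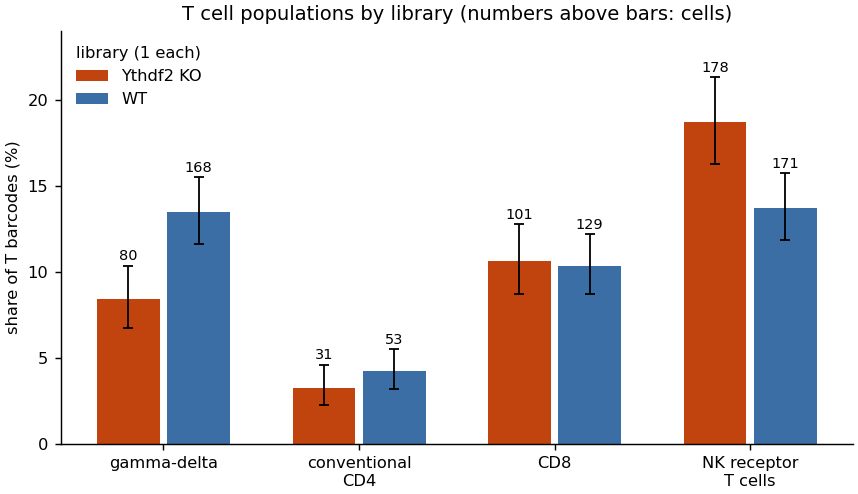
Share of T barcodes (percent, vertical axis) held by gamma-delta, conventional CD4, CD8 and NK receptor T cells, with Ythdf2 KO left of WT and exact binomial 95% intervals as error bars. The gamma-delta bar is 8.41% in Ythdf2 KO and 13.5% in WT, and its intervals do not meet.

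Among the gamma constant genes, Tcrg-C1 had the most UMIs. It reached 373 CPM (314 to 440) in Ythdf2 KO cells and 486 (435 to 542) in WT cells, and it had a UMI in 62.5% and 67.3% of cells. Tcrg-C4 reached 184 CPM (143 to 232) in Ythdf2 KO and 156 (128 to 189) in WT. Tcrg-C2 reached 92.0 and 79.6. Variable segments gave few UMIs, apart from Trdv4, the segment known as V delta 1, with a UMI in 28 of 80 Ythdf2 KO cells and 76 of 168 WT cells. Trdv4 was at 179 CPM (139 to 226) in Ythdf2 KO and 267 (229 to 309) in WT, a ratio of 0.670 (0.499 to 0.890), and after thinning it was in 18.2% and 24.9% of gamma-delta T cells against 0.0519% and 0% of B cells. Gamma-delta T cells held 9.39% and 12.2% of the Trdv4 UMIs of all kept barcodes. All T barcodes together held 19.2% and 19.5%, so most Trdv4 UMIs lay outside them. Trgv2 had a UMI in 23 and 32 cells, Tcrg-V6 in 5 and 14, Tcrg-V1 in 7 and 10, and Tcrg-V4 in 3 and 2, so the variable gamma segment of most cells was not seen at this depth.

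Cells were grouped by the gamma constant gene with most UMIs. Tcrg-C1 led in 35 of 80 Ythdf2 KO cells (43.8%, interval 32.7 to 55.3) and 91 of 168 WT cells (54.2%, 46.3 to 61.9), and Tcrg-C4 led in 15 (18.8%, 10.9 to 29.0) and 22 (13.1%, 8.39 to 19.2). Tcrg-C2 led in 7 and 12 cells, the top count was tied in 9 and 16, and 14 and 27 had none. The intervals of each class overlapped between the libraries. Where Tcrg-V6 was seen, it came with Trdv4 in 4 of 5 Ythdf2 KO cells and 10 of 14 WT cells, while Trdv4 was found in 32.0% and 42.9% of the other cells. In cells led by Tcrg-C4, Trgv2 had a UMI in 33.3% of Ythdf2 KO and 40.9% of WT cells, and Tcrg-V1 in 13.3% and 4.55%. The known pairing of Tcrg-C4 with Tcrg-V1 was thus not seen in these sparse counts, and a class was not read as a variable segment.

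Cd163l1, the scavenger receptor gene also called Scart1, had a UMI in 41 of 80 Ythdf2 KO cells (51.2%, 39.8 to 62.6) and 96 of 168 WT cells (57.1%, 49.3 to 64.7). Its level was 323 CPM (269 to 386) in Ythdf2 KO and 314 (273 to 359) in WT, so the genotypes differed by less than counting error. None of the 322 Ythdf2 KO or 130 WT B cells, which should lack the gene, had a UMI, with exact upper limits of 1.14% and 2.80%. B cells were shallower, with medians of 2101 and 2234.5 UMIs. The related gene 5830411N06Rik, also called Scart2, was in no Ythdf2 KO cell and 3 WT cells, and none of those 3 had Cd163l1.

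Il17a, the gene of the cytokine IL-17A (chr1:20730905-20734496, plus strand, GRCm38), was carried by a minority of the cells at high counts. In the Ythdf2 KO library 24 of 80 cells had a UMI (30.0%, interval 20.3 to 41.3), with a median of 9 UMIs and a maximum of 92 in those cells. In the WT library 50 of 168 cells had a UMI (29.8%, 23.0 to 37.3), with a median of 4 and a maximum of 37. With every cell thinned to 1000 UMIs the expected shares were 25.2% (16.2 to 36.2) and 22.5% (16.5 to 29.6). The share of cells with the transcript thus lay within counting error between genotypes. No B cell had an Il17a UMI in either library.

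The summed Il17a level was 1127 CPM (1023 to 1239) in Ythdf2 KO cells and 585 (529 to 646) in WT cells, a ratio of 1.93 (1.68 to 2.21). That sum rested on few cells: 4 cells held 50% or more of the 429 Ythdf2 KO UMIs, and 8 cells did so for the 397 WT UMIs. With the highest cell left out in each library the ratio was 1.68 (1.44 to 1.95). Gamma-delta T cells held 66.8% of the Il17a UMIs of all T barcodes in Ythdf2 KO and 62.7% in WT, and 43.0% and 23.1% of those of all kept barcodes. Il17f, encoding a related cytokine, had 8 UMIs in 1 Ythdf2 KO cell and 2 UMIs in 2 WT cells.

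Ifng, the gene of interferon-gamma, was sparse. It had a UMI in 6 of 80 Ythdf2 KO cells (7.50%, 2.80 to 15.6) and 9 of 168 WT cells (5.36%, 2.48 to 9.93), and B cells gave 2.17% and 6.92%. After thinning to 1000 UMIs the shares were 2.31% and 2.74% in gamma-delta T cells against 0.493% and 2.03% in B cells. In WT these shares were close to the B cell background. In Ythdf2 KO they were above it, but they rested on 11 UMIs in 6 cells. Neither was read as expression at this depth. In WT, cells led by Tcrg-C4 held 12 Ifng UMIs and cells led by Tcrg-C1 held 1, but 1 and 0 without the 2 highest cells of each class. In Ythdf2 KO, Ifng was at 0 CPM in cells led by Tcrg-C4 and 21.4 in cells led by Tcrg-C1. Gzmb, which encodes the protease granzyme B, had a UMI in 58.8% of Ythdf2 KO cells and 61.3% of WT cells, against 15.8% and 29.2% of B cells. Thinned, Gzmb shares were 31.7% and 35.4% in gamma-delta T cells and 8.02% and 13.3% in B cells.

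**Figure D2:**
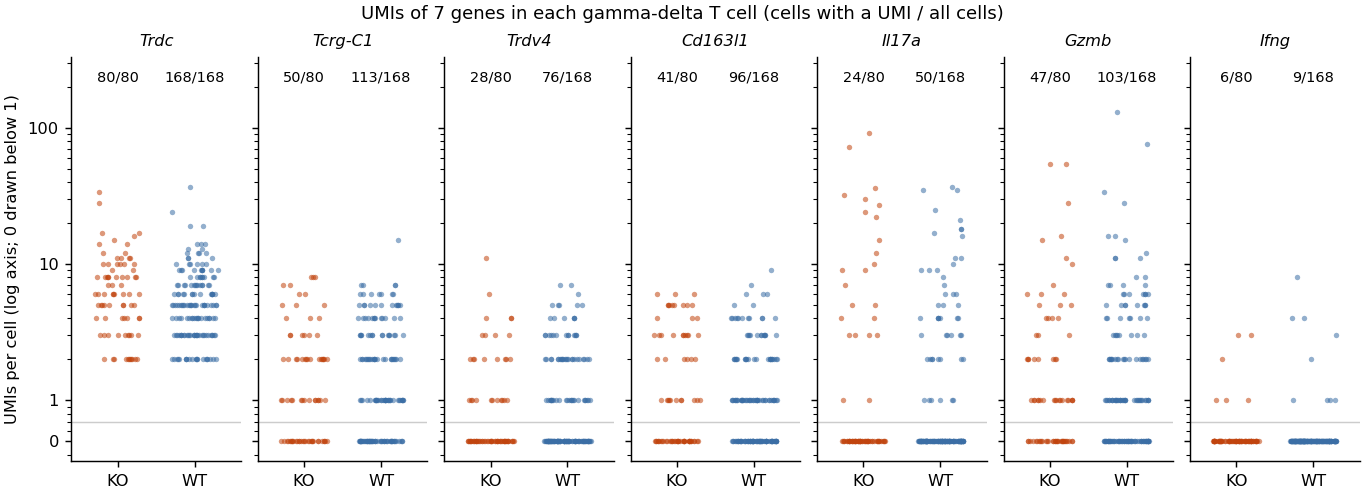
UMIs per cell (vertical log axis, with 0 drawn below 1) of 7 genes in every gamma-delta T cell, 80 from Ythdf2 KO on the left of each panel and 168 from WT on the right. Il17a is at 0 in most cells and reaches 92 UMIs in 1 Ythdf2 KO cell and 37 in 1 WT cell, while Ifng has a UMI in 6 and 9 cells.

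The IL-17-type genes were found in the same cells. Of cells with Il17a, 95.8% (23 of 24) had Cd163l1 in Ythdf2 KO and 92% (46 of 50) in WT, against 32.1% and 42.4% of cells without Il17a. Of cells with Trdv4, 96.4% had Cd163l1 in Ythdf2 KO and 85.5% in WT, against 26.9% and 33.7% of the rest. Il17a was in 57.1% and 51.3% of Trdv4 cells and in 8 of 52 and 11 of 92 of the others. Cells with Cd163l1 were no deeper than the rest, with median totals of 3235 and 3086.5 UMIs against 4588 and 3946. Il17a and Ifng met in 1 cell of each library.

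The gamma constant gene, which played no part in the rule, divided the cells along the same line. In Ythdf2 KO, Cd163l1 stood at 656 CPM in cells led by Tcrg-C1 and 29.4 in cells led by Tcrg-C4, 22.3-fold (7.41 to 110) apart. In WT it stood at 552 and 62.8, 8.80-fold (4.37 to 20.7) apart. Of the 15 Ythdf2 KO cells led by Tcrg-C4, 1 held 36333 of that class's 102096 UMIs and no Cd163l1 UMI. That cell lowers the class's CPM of genes it lacks, so the Ythdf2 KO folds between the classes, here and below, rest in part on it. Il17a was in 17 of 35 Tcrg-C1 cells and none of 15 Tcrg-C4 cells in Ythdf2 KO, where a count of 0 has an exact upper limit of 21.8% of cells. In WT it was in 47.3% of Tcrg-C1 cells and 13.6% of Tcrg-C4 cells. Trdv4 was in 54.3% and 72.5% of Tcrg-C1 cells of Ythdf2 KO and WT, and in none and 18.2% of Tcrg-C4 cells.

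Regulators and surface genes of the IL-17 type were mostly higher in Tcrg-C1 cells, with examples here chosen after their values were seen. Of genes with at least 10 UMIs in both classes together, 21 of 22 on the IL-17 list were at least 1.5-fold higher in Tcrg-C1 cells and 1 lower in Ythdf2 KO, and 26 of 31 were higher and 2 lower in WT. Over all such genes, 28.2% were higher and 21.1% lower in Ythdf2 KO, and 31.5% and 17.7% in WT. The IL-17 list was chosen with earlier results of these data known, so its counts are no independent test. Maf, a transcription factor, was 7.65-fold higher in Tcrg-C1 cells than in Tcrg-C4 cells of Ythdf2 KO and 5.86-fold (3.47 to 10.6) higher in WT. Cxcr6, a chemokine receptor of tissue T cells, was 22.8-fold (7.58 to 113) and 6.20-fold (3.47 to 12.2) higher. Tmem176b, a membrane channel gene of IL-17-type lymphocytes, was 6.88-fold and 7.76-fold higher, and Tnf, a cytokine gene, 8.01-fold and 5.61-fold. Sox13, a transcription factor of the IL-17 lineage, was in 28.6% and 24.2% of Tcrg-C1 cells and in no Tcrg-C4 cell of either library.

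Several cytotoxic genes were higher in Tcrg-C4 cells, though not all. Of 17 measured genes of the interferon-gamma and cytotoxic list in Ythdf2 KO, 10 were at least 1.5-fold higher in Tcrg-C4 cells and 3 (Cxcr3, Gzma and Tnf) in Tcrg-C1 cells, and of 20 in WT, 14 were higher in Tcrg-C4 cells and 2 (Gzmc and Tnf) in Tcrg-C1 cells. Xcl1, a chemokine gene, was in 8.57% of Tcrg-C1 cells and 46.7% of Tcrg-C4 cells in Ythdf2 KO, and in 4.40% and 27.3% in WT. Nkg7, a cytotoxic granule gene, stood at 350 CPM in Tcrg-C1 cells and 793 in Tcrg-C4 cells of Ythdf2 KO, and at 83.0 and 855 in WT. Ccl5, a chemokine gene of effector cells, stood at 699 and 2889 in Ythdf2 KO and at 664 and 1774 in WT. For Xcl1, Nkg7 and Ccl5 the direction held in both libraries with the 1 or 2 highest cells of each class left out. Granzyme genes rested on few cells. In Ythdf2 KO, Gzmb stood at 392 CPM in Tcrg-C1 cells and 1166 in Tcrg-C4 cells, but at 173 and 181 without the 2 highest cells of each class (ratio 0.956, 0.444 to 2.18), while in WT its ratio of Tcrg-C1 over Tcrg-C4 cells was 0.424 (0.334 to 0.539) and 0.563 (0.420 to 0.759) without them. In Ythdf2 KO, the ratio without the highest cell of each class was 0.751 (0.178 to 3.62) for Gzma, against 3.28 with it, and 0.989 (0.344 to 3.21) for Gzmc, against 0.0427 with it. Tbx21, the transcription factor T-bet, was in no Tcrg-C1 cell, and in 6.67% of 15 Ythdf2 KO and 22.7% of 22 WT Tcrg-C4 cells, at 9.79 and 47.1 CPM. Among all gamma-delta T cells, 7 of 80 and 15 of 168 had a Tbx21 UMI, so most of those cells belonged to neither class. Median totals were 3751 UMIs in Tcrg-C1 cells and 4588 in Tcrg-C4 cells of Ythdf2 KO, and 3081 and 4173 in WT.

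**Figure D3:**
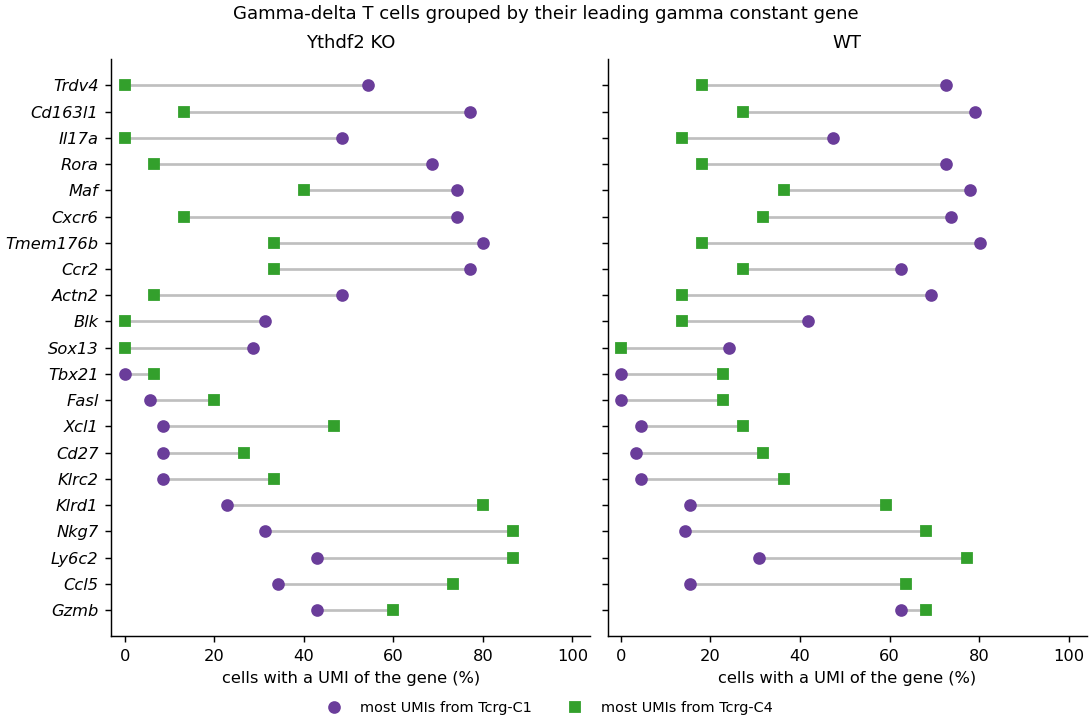
Percent of cells with a UMI of 21 genes (horizontal axis) in cells led by Tcrg-C1 (circles, 35 Ythdf2 KO and 91 WT cells) and by Tcrg-C4 (squares, 15 Ythdf2 KO and 22 WT cells), Ythdf2 KO in the left panel and WT in the right. Trdv4, a receptor segment, and IL-17-type genes from Cd163l1 to Sox13 lie to the right in Tcrg-C1 cells, in both libraries. Cytotoxic genes such as Nkg7, Klrd1 and Ccl5 lie to the right in Tcrg-C4 cells, in both libraries. The genes drawn are a chosen part of the lists. Members that ran the other way are left out, among them Bcl2a1d in Ythdf2 KO, Ahr and Batf in WT, and Tnf in both.

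Gamma-delta T cells were then set against 3 other T cell populations of the same libraries, namely conventional CD4 T cells (31 Ythdf2 KO and 53 WT cells), CD8 T cells (101 and 129) and T barcodes with NK receptor genes and neither coreceptor (178 and 171), in which T and NK cells were not separated. UMIs were summed per library and population and tested with edgeR's quasi-likelihood test, with library as a term, n = 2 libraries, and p-values adjusted by the Benjamini-Hochberg method over 7952 genes. The nominal p was under 0.05 for 1000, 1157 and 2048 genes against CD4, CD8 and NK receptor T cells. Higher at an adjusted p under 0.05 were 73 genes (0.92% of those tested outside the gate genes) against CD4 cells, 195 (2.46%) against CD8 cells and 558 (7.03%) against NK receptor T cells. Lower were 75 (0.945%), 112 (1.41%) and 436 (5.49%). The NK receptor cells were the deepest, with medians of 9896 and 10379 UMIs per cell, and the part of depth in these counts was not tested.

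Of the genes outside the gates, those of the gamma-delta receptor and the IL-17 type were among the largest increases. Of 7 tested receptor genes, 5 were higher against CD4 T cells, 7 against CD8 and 7 against NK receptor T cells, and 0 were lower. The gates required at least 2 Trdc UMIs in gamma-delta T cells and no Trdc UMI in the other populations. The direction of the receptor genes, Trdv4 included, thus follows in part from the selection and is a description. Cd163l1 was at 323 and 314 CPM in gamma-delta T cells of Ythdf2 KO and WT and at 0 in CD4 T cells of both, at least 14.3-fold and 31.1-fold higher with a floor of 3 counts per sum (adjusted p = 6.49e-06). Il17a, at 1127 and 585 CPM, was at 211 and 20.2 in CD4 T cells, a log2 fold change of 3.30 ± 0.34 (SE, adjusted p = 4.44e-05). All 28 Il17a UMIs of the Ythdf2 KO CD4 T cells lay in 1 cell. In CD8 T cells Il17a had no UMI, which makes it at least 330-fold and 181-fold higher in gamma-delta T cells (adjusted p = 1.57e-08). Against NK receptor T cells, at 14.7 and 6.04 CPM, the log2 fold change was 6.33 ± 0.34 (adjusted p = 6.67e-09). Trdv4 was at 179 and 267 CPM in gamma-delta T cells, had no UMI in CD4 or CD8 T cells, and was at 12.5 and 12.1 in NK receptor T cells.

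Of 30 tested genes of an IL-17 list, 9 were higher against CD4 T cells, 22 against CD8 T cells and 25 against NK receptor T cells, and 2, 1 and 0 were lower. The list's median log2 fold changes were 1.10, 2.90 and 3.33, against medians of 0.02, -0.03 and 0.00 over all genes tested. This list, like the others, was chosen with earlier results of these data known. Its counts and medians are therefore a description and not an independent test. Blk, a Src-family kinase gene, was at 76.2 and 106 CPM in gamma-delta T cells and at 7.55 and 0 in CD4 T cells (log2 fold change 5.32 ± 0.99, adjusted p = 0.00671). Abi3bp, an extracellular matrix protein gene, and Actn2, an actinin gene, were also higher against all 3 populations. Rora, the gene of a nuclear receptor, was at 218 and 363 CPM in gamma-delta T cells and 227 and 303 in CD4 T cells, and the difference did not pass the test (log2 fold change 0.14 ± 0.25, adjusted p = 0.898). Maf was lower than in CD4 T cells, at 397 and 407 against 914 and 771 CPM (log2 fold change -1.03 ± 0.19, adjusted p = 0.00652), and higher than in the other two. Batf, an AP-1 family factor gene, was the other member lower than in CD4 T cells.

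Cytotoxic genes that passed were higher than in CD4 T cells and mostly lower than in CD8 and NK receptor T cells. Of 25 tested genes of an interferon-gamma and cytotoxic list, 10 were higher and 0 lower against CD4 T cells, 1 higher and 8 lower against CD8 T cells, and 2 higher and 14 lower against NK receptor T cells. Prf1, the gene of the pore-forming protein perforin, was at 76.2 and 81.1 CPM in gamma-delta T cells, against 7.55 and 16.8 in CD4, 449 and 324 in CD8, and 1003 and 1075 in NK receptor T cells. Gzmb, at 754 and 906, was lower than in CD8 T cells at 3399 and 2459 (log2 fold change -1.86 ± 0.20, adjusted p = 2.28e-05). Ifng, at 28.9 and 36.8, was lower than in CD8 T cells at 961 and 937 (log2 fold change -4.89 ± 0.29, adjusted p = 2.26e-08). Tnf went the other way, at 99.8 and 140 in gamma-delta T cells against 59.1 and 53.8 in CD8 T cells (log2 fold change 1.03 ± 0.25, adjusted p = 0.0259). Eomes, a transcription factor gene, and Cd160, a receptor gene, were higher than in CD4 T cells. CD8 T cells also had to lack the NK receptor genes, but NK receptor T cells were chosen for them. Lower cytotoxic genes against NK receptor T cells may thus follow from the selection. The gate also set aside 135 Ythdf2 KO and 171 WT barcodes that met the rest of the gamma-delta rule. Prf1 was at 957 and 919 CPM in those barcodes, and Gzmb at 3587 and 4503.

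**Figure D4:**
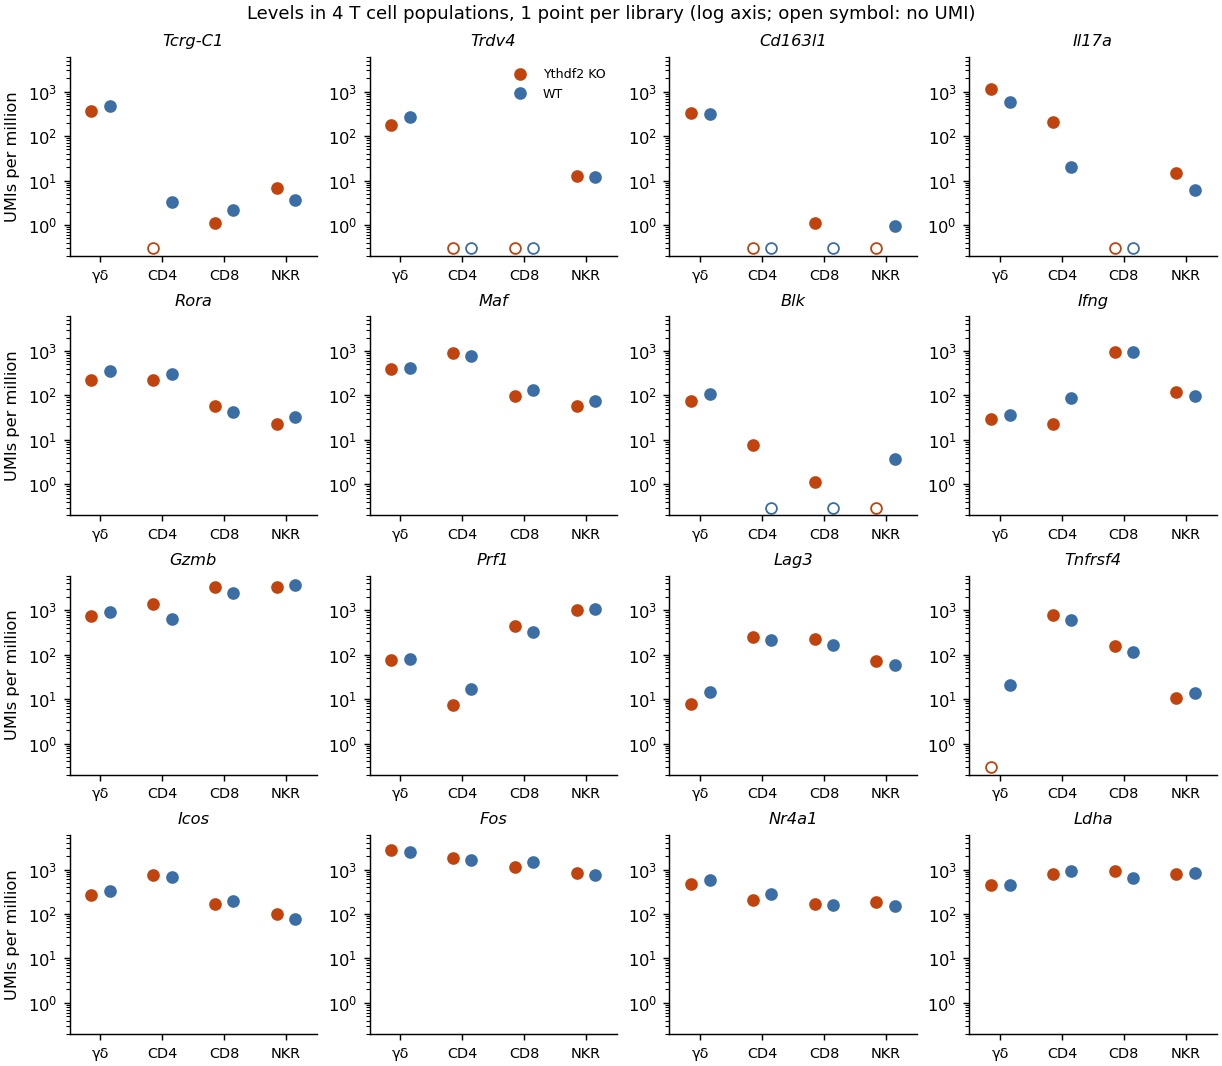
CPM (vertical log axis) of 16 genes in gamma-delta (γδ), CD4, CD8 and NK receptor (NKR) T cells, 1 point per library, Ythdf2 KO left of WT, with open symbols where a library had no UMI. Il17a, Cd163l1 and Tcrg-C1 are highest in gamma-delta T cells, Ifng is highest in CD8 T cells, and Lag3 is lowest in gamma-delta T cells.

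Inhibitory and costimulatory receptor genes differed in both directions, depending on the population. Of 10 tested checkpoint genes, Lag3, Havcr2, Ctla4 and Entpd1 were lower against CD4 and against CD8 T cells, and Lag3, Havcr2 and Cd244a were lower against NK receptor T cells. Cd160 was higher against CD4 T cells, 0 were higher against CD8 T cells, and Pdcd1, Tox and Vsir were higher against NK receptor T cells. Lag3, which encodes an inhibitory receptor for MHC class II, was at 7.88 and 14.7 CPM, against 249 and 216 in CD4, 226 and 168 in CD8, and 71.0 and 58.0 in NK receptor T cells. Pdcd1, which encodes PD-1, was at 116 and 125 in gamma-delta T cells and 142 and 101 in CD8 T cells, with a log2 fold change of -0.08 ± 0.26 that did not pass the test (adjusted p = 0.937). Of 8 costimulatory genes, 6 were lower and 0 higher against CD4 T cells. Against CD8 T cells 3 were lower (Tnfrsf4, Cd28 and Tnfrsf18) and Tnfrsf25 higher, and against NK receptor T cells Tnfrsf9 was lower and Tnfrsf25 and Icos higher. Tnfrsf4, which encodes OX40, was at 0 and 20.6 CPM in gamma-delta T cells against 801 and 616 in CD4 T cells (log2 fold change -5.70 ± 0.43, adjusted p = 7.80e-07). Cd40lg, the gene of CD40 ligand, was at 2.63 and 1.47 against 136 and 74.1.

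Of 14 tested lymphocyte cytokine genes, 5 were lower (Il4, Il13, Il10, Csf1 and Tnfsf8) and 1 higher (Il17a) against CD4 T cells. Against CD8 T cells 2 were higher and 2 lower, and against NK receptor T cells 5 were higher and 1 lower. Il10, the gene of a suppressive cytokine, was at 0 and 8.84 CPM in gamma-delta T cells against 204 and 216 in CD4 T cells (log2 fold change -5.23 ± 0.52, adjusted p = 2.25e-05). Il4 had no UMI in gamma-delta T cells, against 22.7 and 53.9 CPM in CD4 T cells, and Il1rl1 (the interleukin-33 receptor gene) was lower as well. Areg, which encodes the growth factor amphiregulin, was at 78.8 and 51.6 against 1375 and 145 CPM. Areg lay in 3 Ythdf2 KO and 6 WT gamma-delta T cells, and 1 cell held 73.3% and 51.4% of its UMIs. Igfbp7, Lgals7, Tnfrsf8 and Klrg1, a secreted binding protein, a galectin and a pair of receptors, completed the 12 largest decreases against CD4 T cells. Several rested on 1 library. Klrg1 had 2 UMIs in gamma-delta and 3 in CD4 T cells of WT, too few for a fold change there. Il1rl1, Il4, Il13, Igfbp7 and Tnfrsf8 were too sparse in Ythdf2 KO, with 0 UMIs in gamma-delta and at most 3 in CD4 T cells. All 4 tested markers of type 2 innate lymphoid cells (Il1rl1, Il13, Klrg1 and Gata3) were lower than in CD4 T cells, and the part of such cells in the CD4 population was not tested.

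Activation and stress genes were higher than in the other populations. Of 14 immediate early and stress genes, 6 were higher against CD4 T cells, 9 against CD8 T cells and 14 against NK receptor T cells, and 0 were lower in any. Fos, a transcription factor gene induced within minutes of stimulation, was at 2798 and 2463 CPM in gamma-delta T cells, against 1813 and 1606 in CD4, 1141 and 1456 in CD8, and 827 and 744 in NK receptor T cells. Nr4a1, a target of T cell receptor signals, was at 473 and 590 against 204 and 286 in CD4 T cells (log2 fold change 1.10 ± 0.22, adjusted p = 0.0134). Cd69, an early activation and retention gene, was at 1269 and 1212 against 687 and 539 in CD4 T cells (log2 fold change 1.06 ± 0.18, adjusted p = 0.00296). Klf2, a transcription factor gene of quiescent and recirculating T cells, was also higher against all 3. The tumours were digested with collagenase before sorting, and the part of tissue handling in these genes was not tested.

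Part of the glycolysis genes were lower. Of 17 tested, 3 were lower against CD4 T cells, 9 against CD8 T cells and 8 against NK receptor T cells, and 0 were higher. At a nominal p under 0.05 in the same edgeR test, 9, 11 and 11 were lower and 0, 0 and 1 higher. Ldha, the lactate dehydrogenase gene, was at 460 and 452 CPM in gamma-delta T cells, against 801 and 913 in CD4, 949 and 648 in CD8, and 793 and 850 in NK receptor T cells. Pkm, the pyruvate kinase gene, and Tpi1, the triosephosphate isomerase gene, were lower against all 3 as well. Of 7 tested residency genes, 1 was higher against CD4 T cells (Cd69) and 4 against CD8 T cells, among them Itgae, the gene of integrin CD103, at 34.2 and 91.4 against 2.27 and 6.45 CPM. Of 17 interferon response genes, 10 were higher than in NK receptor T cells, with 0 higher and 1 lower against CD4 T cells. Of 17 cell cycle genes, 0 passed against CD4 or CD8 T cells in edgeR (4 and 6 lower at a nominal p under 0.05), and 6 were lower than in NK receptor T cells.

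The remaining lists had few members past the test. Of 9 genes of naive and central memory cells, Klf2 was higher and Satb1, a chromatin organizer gene, lower against CD4 T cells, and Klf2, Tcf7, S1pr1 and Ccr7 were higher against NK receptor T cells. Of 12 T cell receptor signalling genes, 3 were lower against CD4 T cells (Cd5, Cd6 and Cd2) and 4 against CD8 T cells, while 4 were higher and 1 lower against NK receptor T cells. Of 15 hypoxia genes, 0 passed against CD4 T cells in edgeR (4 lower at a nominal p under 0.05) and 2, Slc2a1 (a glucose transporter gene) and Mif (a cytokine gene), were lower against CD8 T cells. Of 8 tissue repair and growth factor genes, Areg was lower against CD4 T cells and 0 passed against CD8 T cells (3 higher at a nominal p under 0.05). Of 7 chemokine genes, Xcl1 and Ccl5 were higher against CD4 T cells, and Ccl3 and Ccl4 were lower against CD8 T cells. Of 7 lipid genes, Acsbg1, an acyl-CoA synthetase gene, was higher against CD8 and NK receptor T cells. Of 8 neutrophil markers, 4 (S100a8, S100a9, Retnlg and Mmp9) were higher against NK receptor T cells, and their part in the other differences was not tested.

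Across all genes tested outside the gate, 42 were higher and 10 lower against each of the 3 populations. Besides those described, the 42 included Serpinb1a, which encodes an inhibitor of neutrophil proteases, Il18r1, an interleukin-18 receptor gene, Tmem176a, Cxcr4, Jun, Ier2, Smad7 and Klf4. The 10 lower were Lag3, Havcr2, Ldha, Pkm, Tpi1, Trac, Ctla2a, Fyb, Plek and AW112010. Further genes among the largest increases were Clnk (a signalling adaptor), Xcl1, St3gal6 (a sialyltransferase) and Myo1e (a myosin) against CD4 T cells, Ppp1r14c, Sox13 and Gm9961 against CD8 T cells, and Tcrg-V6, Sox13 and Aqp3 (a water and glycerol channel) against NK receptor T cells. Largest decreases also took in Gzmk, Nrn1, Igfbp7 and Nrgn against CD8 T cells, and Sh2d1b2, Gm15518, Klra6, Prss2, Dixdc1 and Gzmg against NK receptor T cells. Rhox5 also passed against CD8 T cells (adjusted p = 0.0497, edgeR), but from 1 library, with 0 UMIs in gamma-delta and 47 in CD8 T cells of Ythdf2 KO and 1 and 0 in WT. Gzmg and Klra6 belong to families of near-identical genes, so their separate values are uncertain.

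Between genotypes, Ythdf2 itself was at 42.0 CPM (24 to 68.3) in Ythdf2 KO gamma-delta T cells and 70.7 (52.2 to 93.8) in WT cells, from 16 and 48 UMIs, a ratio of 0.594 (0.315 to 1.06). Over all kept barcodes the ratio was 0.952 (0.920 to 0.984), from 46.1 and 48.4 CPM. In other populations the ratio was 0.397 (0.228 to 0.665) in CD8, 0.978 (0.755 to 1.27) in NK receptor T cells, with an interval of 0.637 to 3.88 in CD4 T cells. These ratios did not settle the labels, since UMIs outside a deleted part would not show a loss. Ythdf1, another reader, was at 42.0 and 16.2 CPM (ratio 2.59, 1.13 to 6.18), and Alkbh5, a demethylase, at 47.3 and 94.3 (0.501, 0.280 to 0.857). Of 9 genes of the m6A machinery tested between cell types with edgeR, 0 passed against any population, and at a nominal p under 0.05 there was 1, lower against CD4 T cells.

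Over 5700 genes with at least 20 UMIs, 543 (9.53%) were at least 1.5-fold higher in Ythdf2 KO gamma-delta T cells and 868 (15.2%) at least 1.5-fold lower, and the median log2 ratio was -0.06. Of 30 measured genes of the IL-17 list, 2 were at least 1.5-fold higher (Il17a and Batf) and 9 lower, with a median log2 ratio of -0.37. With the cell holding most UMIs of each gene left out of each library, 2 were higher and 14 lower, and over all genes 464 were higher and 1184 lower. Of 8 measured m6A machinery genes, Ythdf1 was the 1 higher, and Ythdf2, Alkbh5 and Mettl14, a subunit of the methyltransferase, were lower. The intervals of Batf (0.786 to 4.86), Ythdf2 (0.315 to 1.06) and Mettl14 (0.0975 to 1.20) include 1. Rora was at 218 CPM in Ythdf2 KO and 363 in WT (ratio 0.601, 0.463 to 0.774). Il2ra, the high-affinity interleukin-2 receptor gene, was at 142 and 255 (0.556, 0.402 to 0.759), and Il18r1 at 173 and 265 (0.654, 0.485 to 0.871). Il17a stood above its WT level and these receptor genes below theirs, while Cd163l1, Maf and Cxcr6 had ratios of 1.03, 0.975 and 1.09 with intervals that include 1.

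Of 6 measured gamma-delta receptor genes outside the gate and of 12 T cell receptor signalling genes, 0 passed 1.5-fold in either direction. Of 23 cytotoxic genes, 3 were higher and 3 lower. Gzmc, a granzyme gene, had a ratio of 2.72, but 88.9% of its Ythdf2 KO UMIs lay in 1 cell and the ratio without the highest cells was 0.538. Xcl1 was at 173 CPM in Ythdf2 KO and 351 in WT (ratio 0.494, 0.370 to 0.652). Of 6 chemokine genes, 3 were higher, among them Ccl4, an inflammatory chemokine gene, at 1051 and 348 CPM (ratio 3.02, 2.57 to 3.56), with a UMI in 31.2% and 22.6% of cells. Ctla4, which encodes an inhibitory receptor, was at 36.8 and 100.2 CPM (ratio 0.367, 0.191 to 0.659), and Itgae at 34.2 and 91.4 (0.374, 0.189 to 0.687).

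Of 12 measured hypoxia genes, 0 were at least 1.5-fold higher and 4 lower in Ythdf2 KO, among them Vegfa, the gene of an angiogenic growth factor, at 26.3 and 72.2 CPM (ratio 0.364, 0.164 to 0.727). Of 17 glycolysis genes, 1 was higher and 5 lower, and of 13 cell cycle genes, 1 was higher and 3 lower. The cell cycle count rested on single cells: with the cell holding most UMIs of each gene left out of each library, 0 were higher and 12 lower (all but Pcna). Mki67, a proliferation marker, then had a ratio of 0.453, against 1.55 with all cells. Of 17 interferon response genes, 1 was higher, Oasl2, an antiviral gene, at 155 and 95.8 CPM, and 0 lower. Smaller lists of 6 to 9 genes for residency, costimulation, checkpoints, memory, lipids, cytokines and repair had at most 3 members past 1.5-fold in each direction.

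Of 14 immediate early and stress genes, 0 were higher and 3 lower, all of them heat shock genes. Hspa1b, an inducible chaperone, had a UMI in 21 of 80 Ythdf2 KO cells and 84 of 168 WT cells, at 326 and 971 CPM (ratio 0.335, 0.275 to 0.407). Hspa1a is a near-identical copy, and the pair summed to 638 and 1486 CPM (ratio 0.430, 0.372 to 0.495). Hsp90aa1, another chaperone, was at 1119 and 1717 (0.652, 0.582 to 0.729). Hspa1b was also lower in Ythdf2 KO in other populations: its ratio was 0.284 in CD8 T cells, 0.344 in NK receptor T cells and 0.436 in B cells, and 0.809 (0.533 to 1.20) in CD4 T cells.

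Of the genes with the largest ratios, most on the higher side are known from myeloid cells. Il1b, an inflammatory cytokine gene, had a UMI in 25.0% of Ythdf2 KO cells and 17.3% of WT cells, at 767 and 190 CPM (ratio 4.03), and its ratio without the highest cells was 3.91. S100a8 and S100a9, neutrophil alarmin genes, had ratios of 4.44 and 4.07, with 71.2% and 59.7% of the Ythdf2 KO UMIs in 1 cell, and of 4.13 (3.14 to 5.47) and 6.15 (4.97 to 7.67) without the highest cell of each library. G0s2 (7.13), Acod1 (6.09), Pf4 (3.92), Tnfaip2 (3.63), Retnlg (3.32) and Ly86 (3.03), all genes of myeloid cells or platelets, and Igkc (16.3), an antibody light chain gene found in 6 and 5 cells, made up the rest. All 7 measured neutrophil markers of 8 were at least 1.5-fold higher in Ythdf2 KO, and they summed to 4524 CPM there and 1089 in WT. Only 4 of 80 and 3 of 168 cells had 5 or more neutrophil UMIs, and without them the S100a8 and S100a9 ratios were 0.423 (0.125 to 1.14) and 0.804 (0.374 to 1.63). That filter was chosen after seeing the data and uses S100a8 and S100a9 themselves, so it removes their UMIs by construction. Macrophage and monocyte markers, gate genes included, summed to 1395 and 1104 CPM, dendritic cell markers to 3134 and 1798, and B cell markers to 116 and 61.9.

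Lowest in Ythdf2 KO was Gzmf, a granzyme gene, at 15.8 and 1001 CPM, with 93.2% of its WT UMIs in 1 cell. Gzmd, its neighbour, had 73.5% in 1 cell. Summed over the near-identical Gzmd, Gzme, Gzmf and Gzmg, the ratio was 0.0609, and 0.330 (0.194 to 0.533) without the highest cell of each library. The remaining genes were spread over many WT cells: Nxf1, an mRNA export factor, was in 5 of 80 Ythdf2 KO cells and 39 of 168 WT cells (ratio 0.194, 0.0601 to 0.486). Ttc39b was in 14 and 53 cells (ratio 0.328), Sipa1l1 in 12 and 52 (0.351), and Kmt2d, a histone methyltransferase gene, in 9 and 37 (0.357). Camk2n1, Gabpb2 and Tceal9 had ratios of 0.332, 0.34 and 0.35.

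**Figure D5:**
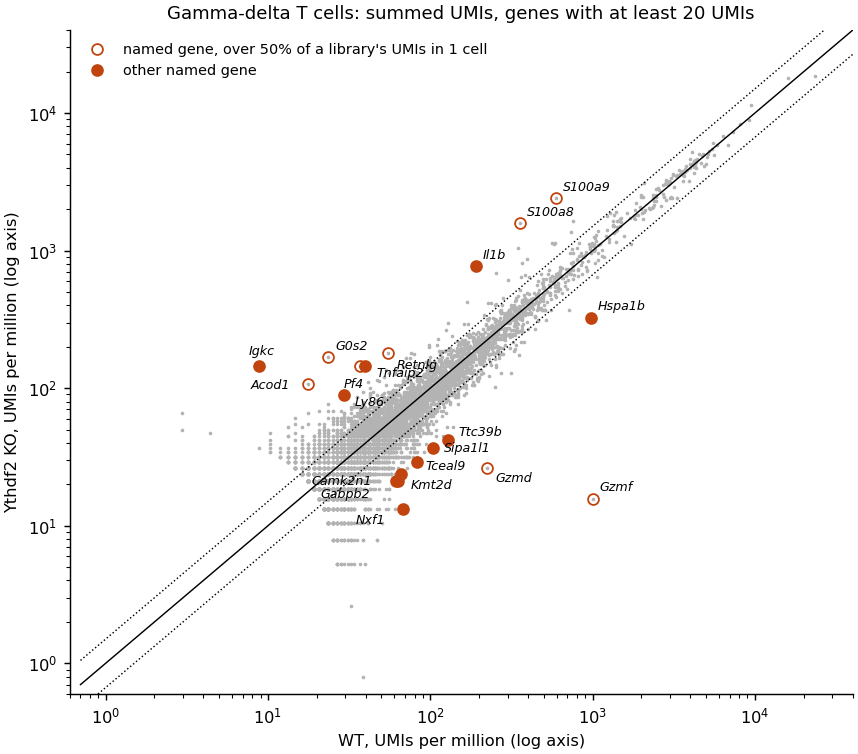
Level of each gene in gamma-delta T cells of Ythdf2 KO (vertical log axis) against WT (horizontal log axis), in CPM over genes with at least 20 UMIs, with equality as a solid line and 1.5-fold as dotted lines. Named genes are orange, and those with over 50% of a library's UMIs in 1 cell are open circles, among them S100a8, S100a9 and Gzmf, while Hspa1b and Il1b are filled.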

How the data were processed

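Mouse CD45+ cells sorted from Ythdf2 KO and WT tumours were profiled with a 10x Genomics 5′ kit on a NovaSeq instrument, per the labels' protocols, with 1 library each. The deposited files hold raw UMI counts per gene and barcode. Cell Ranger 5.0.1, Seurat 4.0.4 and build mm10 are named per the submitters' processing notes, and Cell Ranger 6.1.1 per the file headers; filters, and how reads shared by near-identical genes were counted, are not given in the sources used here. The files list 32285 genes, and rows of the 38 symbols found on several rows were summed.

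Barcodes with at least 200 genes and at most 10% mitochondrial UMIs were kept. The other T cell populations had the same Cd3 and macrophage gates, no Trdc and no Foxp3 UMI. CD4 T cells then had a Cd4 UMI and no Cd8 or NK receptor UMI, CD8 T cells a Cd8 UMI and no Cd4 or NK receptor UMI, and NK receptor T cells at least 2 UMIs of Ncr1, Klrb1c and Klre1 and no Cd4 or Cd8 UMI. The members and the gene lists were chosen with earlier results of these data known. Shares of cells were also computed as the expected share after thinning each cell to 1000 UMIs. Doublets were not removed; leaving out the 8% of barcodes with the highest Scrublet scores (scanpy 1.11.5) was an alternative.

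UMIs were summed over 4 populations and 2 libraries and tested with edgeR 4.0.16 (quasi-likelihood test, TMM normalization, filterByExpr, terms for population and library, 3 residual degrees of freedom) in R 4.3.3, with limma 3.58.1 loaded and DESeq2 1.42.0 as an alternative; the libraries also differ in genotype, so a genotype difference that varies between populations counts as spread, and the p-values measure only the spread between these libraries. Ratios between genotypes were computed on the counts with exact intervals in Python 3.11.15 with scipy 1.17.1, numpy 2.4.6 and pandas 2.3.3, and figures were drawn with matplotlib 3.10.9. The scripts were tested on simulated data. Genes named between genotypes were the 10 highest and 10 lowest ratios among genes with at least 50 UMIs and an interval off 1. Genes named between cell types were the 12 largest log2 fold changes each way against CD4 T cells and the 6 largest against CD8 and NK receptor T cells. Gate genes, Xist, Y-linked, mitochondrial and ribosomal genes were left out, and genes of the lists could be named too. Gene positions are from GENCODE on GRCm38, the same assembly as mm10.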

Additional observations from a re-analysis of the deposited data

Results flagged for a closer look

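Some genes had a Ythdf2 KO over WT ratio in gamma-delta T cells that ran opposite to the ratio in another T cell population of the same libraries. These differences were not tested. Igkc had a ratio of 16.3 in gamma-delta T cells and 0.143 in NK receptor T cells, where 1 WT cell held 87.5% of the 128 WT UMIs. Its ratio was 16.6 in CD4 T cells, 0.656 in CD8 T cells and 0.943 in B cells. G0s2 had 7.13 against 0.104 in CD8 T cells, Pf4 3.92 against 0.375 in CD8 T cells, and Ly86 3.03 against 0.517 in CD8 T cells. Set against CD4 T cells, S100a8 had 4.44 and 0.695, S100a9 4.07 and 0.796, and Retnlg 3.32 and 0.399. These 3 genes ran the same way as in gamma-delta T cells in NK receptor T cells (4.33, 6.43 and 16.2), in B cells (6.94, 7.78 and 15.5) and in CD8 T cells (1.29, 1.03 and 2.55). Gzmf had 0.0158 against 1.28 in CD8 and 1.21 in NK receptor T cells, and Gzmd 0.118 against 1.98 and 1.31. Tceal9, which was spread over 7 Ythdf2 KO and 36 WT cells, had 0.35 against 1.63 in CD8 and 1.38 in NK receptor T cells. Of these genes, G0s2, S100a8, S100a9, Pf4, Retnlg, Gzmf and Gzmd had over 50% of the UMIs of 1 library in a single cell.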

How the results depend on the processing

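No paired analysis was possible because each genotype has 1 library, so this concerns Ythdf2 KO against WT alone. The tests between populations kept library as a term, and with no library term edgeR called 59 genes higher and 52 lower against CD4, 167 and 83 against CD8, and 499 and 370 against NK receptor T cells. The difference in the share of kept barcodes (Ythdf2 KO minus WT, in percentage points) was -0.67 with no macrophage limit, -0.27 where a gamma constant UMI was required and -0.29 where a Trac UMI was barred. The difference in the share of T barcodes was -3.92, -4.37 and -4.58. The unthinned difference in the share of cells with Il17a was 0.24 points, and that in the share led by Tcrg-C1 was -10.5 points over cells with UMIs of a single constant gene. Genes at least 1.5-fold apart between genotypes numbered 185 higher and 284 lower with a minimum of 50 UMIs, and 1336 and 1933 with no filter. DESeq2 called 43 genes higher and 42 lower against CD4, 113 and 61 against CD8, and 280 and 149 against NK receptor T cells. With no filter on low counts edgeR called 162 higher and 134 lower against CD4, 223 lower against CD8 and 709 lower against NK receptor T cells. Fitted on the compared populations alone, it called 49 lower against CD4, and 936 higher and 850 lower against NK receptor T cells. Of single genes between cell types, 0 reversed, but 91 were weaker under at least 1 alternative. Under DESeq2 75 were weaker, and with no library term 37 were. Of named genes between genotypes, 9 reversed under an alternative. Without cells of 5 or more neutrophil UMIs, an alternative chosen after seeing the data, the log2 ratio was -1.04 for G0s2, -1.24 for S100a8, -0.31 for S100a9 and -0.54 for Tnfaip2. With no macrophage limit it was -0.14 for Acod1, -0.0033 for Ly86 and 0.0348 for Gzmd. It was -0.59 for Retnlg with at least 3 Trdc UMIs and -0.43 with under 5 macrophage UMIs per 10000. It was -0.89 for Gzmc without its highest cell in each library, also chosen after seeing the data. For Tcrg-C1 over Tcrg-C4 cells of Ythdf2 KO, the Gzma log2 ratio was -0.41 and -0.72 without the highest 1 and 2 cells of each class, likewise chosen after seeing the data. In genotype counts without the highest cell of each gene, 5 in place of 3 cytotoxic genes, 2 in place of 0 gamma-delta receptor genes and 1 in place of 0 receptor signalling genes were at least 1.5-fold lower in Ythdf2 KO, and 0 in place of 3 repair genes higher. The causes were not tested. Ifng and the variable segments other than Trdv4 gave few UMIs, as by definition did genes under 20 UMIs. The part of depth in this was not tested.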

Other observations

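The gate on NK receptor genes set aside 135 Ythdf2 KO and 171 WT barcodes that met every other part of the gamma-delta rule. Ifng was in 54.1% of them in Ythdf2 KO and 50.3% in WT, at 142 and 112 CPM, and Gzma, the gene of granzyme A, was at 4943 and 3730 CPM. Ccl5 was at 973 and 851 CPM, below the 1907 and 1399 CPM of the gamma-delta T cells. Cd163l1 was in 5.93% and 9.36% of them, and Il17a in 3.70% and 7.60%. Their Trdc level was 502 and 443 CPM, against 1519 and 1478 CPM in the gamma-delta T cells, and 40.7% and 39.2% of them had no gamma constant UMI. They were deeper, with medians of 9035 and 9900 UMIs, and NK cells that transcribe Trdc cannot be told apart from gamma-delta T cells with NK receptors here.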
